A study of Mus musculus with 13 samples.

Results

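Damaged cells halt their division cycle through a small set of effector genes, and 10 of them were followed here in irradiated mouse oocytes: Cdkn1a, Sfn, Gtse1, Psrc1, Btg2, Gadd45a, Gadd45b, Gadd45g, Plk2 and Plk3. They were chosen by name as arrest and checkpoint effectors, out of 49585 genes in the deposited transcript tables, and all 10 were found there. RNA came from oocytes of CD-1 mice on postnatal day 5, whose ovaries had been cultured overnight, irradiated with a caesium source and dissociated with trypsin at set times, with several ovaries pooled for each time point. The series of 0.5 Gy has 2 libraries each for 0, 1 and 4 h and a single one each for 2.5 and 6 h, and that of 0.2 Gy has 1 library for each of these times, 13 in all. The labels also give a generation: replicate 1 of the 0.5 Gy duplicates is first generation, replicate 2 and the single 2.5 and 6 h libraries of 0.5 Gy are second generation, and all 5 libraries of 0.2 Gy are of the third. Dose and generation therefore cannot be told apart. The assignment of the duplicates of 1 h and 4 h to generations is in doubt. The authors' own listing has their mapped read totals in the opposite order to the files, and their numbers of detected transcripts in the files' order. Values within a generation follow the labels. The 0 h libraries serve as the control of each dose. The labels and the study's methods place them 0 h after irradiation, and its results text places them before it. No unirradiated series was sampled over the same hours is analysed here, so time in culture and irradiation cannot be told apart either. No source used here says that the duplicates are separate litters or days, and p-values measure the spread between these libraries.

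Oocytes of this age rest in the prolonged prophase of the first meiotic division and do not replicate DNA or divide, while the genes studied here are best known from dividing somatic cells. Cdkn1a encodes p21, an inhibitor of the cyclin-dependent kinases, and is the textbook target of p53. Members of the p53 family bind DNA as tetramers and recognise a pair of half-sites, and in resting oocytes the family member at work after DNA breaks is p63, in its TAp63α form. Of the other genes, Sfn encodes the sigma form of the 14-3-3 proteins, which holds cyclin B with its kinase in the cytoplasm, Gtse1 and Psrc1 encode microtubule-associated proteins, Btg2 an antiproliferative factor that also acts in mRNA deadenylation, the Gadd45 genes small stress-response proteins, and Plk2 and Plk3 polo-like kinases of the stress response.

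Each of the 10 genes had a RefSeq promoter entry (GRCm38.p6), 13 windows in all because Cdkn1a, Gtse1 and Psrc1 have 2 annotated starts each. The 250 bases before each start were searched for the p53 family site, 2 half-sites of 10 bases without a spacer, with both core motifs intact and at most 2 mismatches over 20 bases. The consensus is its own reverse complement, so the search covers both strands. Only 1 of the 13 windows held a match, the one before the upstream start of Cdkn1a, and 0.134% of all 32851 promoter windows of this length did. The Cdkn1a match had 1 mismatch, and 0.0457% of all windows held a match that close. A looser form of the site, 2 copies of CATG with 6 bases of any kind between them, overlaps this match, was in 1 of 13 windows and in 0.49% of all. Both Cdkn1a windows lie on the plus strand of chromosome 17 and are shown because the 2 starts gave separately estimated transcripts. The upstream window is chr17:29090729-29090978 and the downstream one is chr17:29093519-29093768, and the capitals mark the matched site, whose last base lies 32 bases before the transcription start.
Cdkn1a, upstream start: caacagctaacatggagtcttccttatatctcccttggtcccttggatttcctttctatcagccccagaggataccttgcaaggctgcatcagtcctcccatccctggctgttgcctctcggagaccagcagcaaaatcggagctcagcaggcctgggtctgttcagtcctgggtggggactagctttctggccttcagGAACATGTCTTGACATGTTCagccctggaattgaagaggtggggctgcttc
Cdkn1a, downstream start: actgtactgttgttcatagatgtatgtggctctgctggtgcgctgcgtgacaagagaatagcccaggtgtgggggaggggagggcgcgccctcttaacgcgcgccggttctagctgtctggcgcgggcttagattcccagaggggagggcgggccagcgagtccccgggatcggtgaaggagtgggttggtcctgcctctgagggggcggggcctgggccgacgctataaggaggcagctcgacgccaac
A match is a run of letters and not a measured binding site, and a window without one says nothing about sites elsewhere. Of 4 further motifs searched on both strands, TGACGTCA, the cyclic AMP response element, was in 2 of the 13 windows (Btg2 and Plk2) and in 1.55% of all windows. The CCAAT box (CCAAT) was in 9 of 13 windows against 33.8% of all. The 2 windows of Psrc1 largely overlap and hold the same CCAAT copy, which is thus counted for both. Those of Gtse1 overlap only at their edge. TATAAA was in 2 of 13 against 12.4%, and TTTGAA in 0 of 13 against 16%.

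The libraries held between 15709549 and 30430104 estimated reads, the shallowest being replicate 2 at 0 h of 0.5 Gy, and 3 reads corresponded to between 0.099 and 0.192 CPM, the read count scaled to a common library size. Oocyte markers were present in every library: the 12 genes summed to between 3237 and 5309 CPM, with a median of 1815 CPM for Zp2 and 109 CPM for Ddx4. Markers of other ovarian cells were present as well, with sums over all 13 libraries of 1228 to 2199 CPM for 10 granulosa genes, 1994 to 3918 CPM for 8 stroma genes and 63.6 to 128 CPM for 4 endothelial genes. Leukocyte markers ran from 31.3 to 262 CPM, the highest in replicate 2 at 0 h of 0.5 Gy. The 10 markers of cycling cells summed to between 1084 and 1443 CPM, with Mki67 at a median of 146 CPM. Whether these cycling markers came from oocytes or from other cells was not tested. The label oocyte thus holds for its markers, but the libraries also carry RNA of markers of other cells. In such bulk samples fewer cells of a type and less RNA per cell cannot be told apart, and the part of other cells in the results was not tested.

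After 0.5 Gy, 2 of the 10 genes were called in the comparison of the 4 libraries at 2.5, 4 and 6 h with the 4 at 0 and 1 h, Cdkn1a and Gtse1, both higher. Calls needed p below 0.05 after adjustment and a change of more than 1 on the log2 scale, up or down, in edgeR's quasi-likelihood test, and 0.128% of the 22588 genes tested were called, 29 higher and 0 lower. A further 5 members, Sfn, Btg2, Plk2, Psrc1 and Plk3, had an unadjusted p under 0.05 and were higher but did not pass, where 4.77% of all genes tested were higher at that level. The median log2 fold change was 1.12 over the 10 genes and -0.02 over all genes tested, and 9 of the 10 lay above 0 against 48.4% of all. In 6 of the 10 genes every later library lay above every earlier one, against 3.18% of all genes tested, and in 0 of 10 every later library lay below, against 2.04%. The 6 include Plk3, whose sides were parted only by 25 reads against 23. Of the 10 genes, Cdkn1a, Sfn, Gtse1 and Psrc1 belong to the list of changed genes that the study itself drew from these libraries, so their direction is not independent evidence. The members and the split at 2.5 h were also chosen with earlier results of these data known, so the members' shares are not independent evidence either. Libraries pooled over times are not replicates of one condition.

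**Figure D1:**
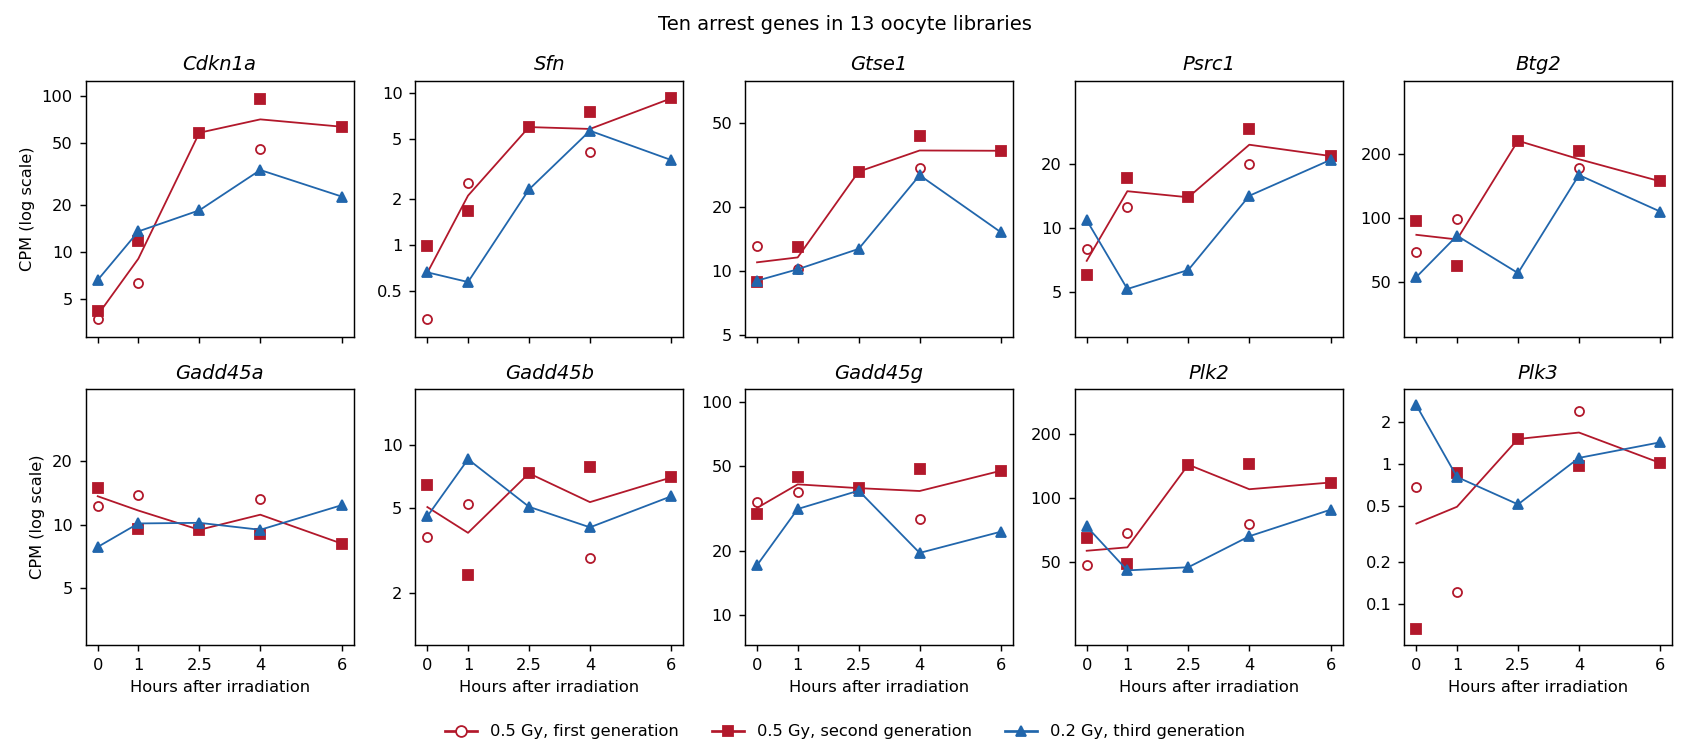
Level of each of the 10 genes in CPM (vertical log axes) against hours after irradiation, 1 panel per gene. Red points are the 0.5 Gy libraries (open circles first generation, filled squares second generation), blue triangles the 0.2 Gy libraries, and lines join the means per time; Cdkn1a goes from 3.72 and 4.16 CPM at 0 h to between 45.7 and 95.9 CPM from 2.5 h on, while Gadd45a keeps within 8.13 and 14.9 CPM after 0.5 Gy.

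Cdkn1a showed the largest fitted fold change of the 10 in this comparison. Its level after 0.5 Gy was 3.72 and 4.16 CPM at 0 h, 6.35 and 11.7 CPM at 1 h, 58.1 CPM at 2.5 h, 45.7 and 95.9 CPM at 4 h and 63.5 CPM at 6 h, replicate 1 first. Every library from 2.5 h on lay well above every earlier one, both 1 h libraries lay above both 0 h libraries, and the 3 later times overlapped one another. Its log2 fold change of later against earlier libraries was 3.32 (SE 0.34, adjusted p = 0.00362, edgeR, 4 libraries against 4), a 9.97-fold difference with a 95% interval from 5.99 to 16.6. The call held when each of the 8 libraries was left out in turn. Within each generation the difference was of like size, at a log2 value of 3.21 in the first (1 later library against 2) and 3.32 in the second (3 against 2).

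The transcripts of both Cdkn1a starts were higher in the later libraries. The gene lies at chr17:29090976-29100727 on the plus strand (GRCm38), and 3 of its 5 annotated transcripts were in the files, all protein-coding. Cdkn1a-201, which begins at the downstream start, took 50.7% of the gene's reads over all libraries, Cdkn1a-202, which begins at the upstream start beside the p53 family site printed above, took 37.6%, and Cdkn1a-203, whose annotated start lies inside the gene, took 11.7%. Per length, in TPM, the order is another, with 23.3% for Cdkn1a-201, 61.0% for the shorter Cdkn1a-202 and 15.8% for Cdkn1a-203. Cdkn1a-202 had 2.55 ± 1.58 CPM in the earlier and 24.2 ± 11.4 CPM in the later libraries of 0.5 Gy (SD, n = 4 each). Cdkn1a-201 had 3.30 ± 2.02 CPM and 35.1 ± 8.13 CPM. For each of these transcripts the lowest later library lay above the highest earlier one. Their ratios of means, 9.49 and 10.6, are near each other, and the share of Cdkn1a-202 in the gene's reads overlapped between the sides, at 28.3% to 55.1% earlier and 27.4% to 41.6% later. Cdkn1a-203 went from 0.638 ± 0.312 CPM to 6.53 ± 4.50 CPM, and its share in the gene's reads varied between 2.51% and 24.1% over the 13 libraries. The split rests on reads of 30 bases shared between transcripts, so it is a model estimate. Of the 30-base sequences of Cdkn1a, 9.87% also occur in transcripts of other genes. AC167363.2, which overlaps Cdkn1a on the other strand, holds 6.91%.

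**Figure D2:**
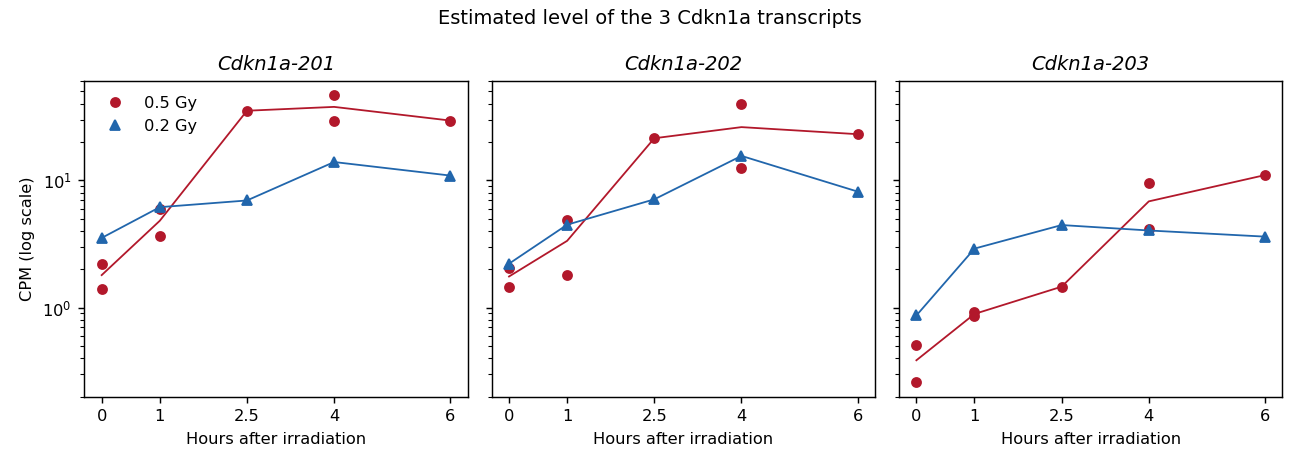
Estimated CPM (vertical log axis) of the 3 Cdkn1a transcripts against hours after irradiation, red circles 0.5 Gy and blue triangles 0.2 Gy, with lines joining the means per time. After 0.5 Gy, Cdkn1a-201 and Cdkn1a-202 both lie about 10 times higher from 2.5 h on than before, with ratios of means of 10.6 and 9.49.

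Sfn, at chr4:133600556-133602168 on the minus strand with a single transcript, had few reads at 0 h. Its levels were 0.323 and 0.991 CPM at 0 h, 2.57 and 1.67 CPM at 1 h, 5.99 CPM at 2.5 h, 4.08 and 7.56 CPM at 4 h and 9.27 CPM at 6 h, resting on 8 to 63 reads in the earlier libraries and 105 to 245 in the later ones. All later libraries lay above all earlier ones, and both 1 h libraries above both 0 h libraries. The difference between the sides was 2.25 on the log2 scale (SE 0.52), but with adjusted p = 0.209 in edgeR it did not pass, whereas DESeq2's Wald test called it at adjusted p = 0.00148, where it called 0.977% of genes. Of the 30-base sequences of Sfn 27.7% are found in other genes, 19.7% in the pseudogene Gm7850, which was given between 0 and 5 reads per library.

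Gtse1, at chr15:85859745-85876573 on the plus strand, is transcribed in the later phases of the cell cycle in dividing cells, and its product binds p53 and p21. Its levels were 13.1 and 8.92 CPM at 0 h, 10.2 and 12.99 CPM at 1 h, 29.4 CPM at 2.5 h, 30.7 and 43.3 CPM at 4 h and 36.9 CPM at 6 h. The 1 h libraries lay within the 0 h range, and the lowest later library was more than 2-fold above the highest earlier one. The log2 fold change was 1.61 (SE 0.20, adjusted p = 0.0102 in edgeR, 4 libraries against 4), a 3.06-fold difference with a 95% interval from 2.26 to 4.15. Without replicate 2 of 4 h the adjusted p was 0.0593 and without the 6 h library 0.066, so the call rests on these libraries, while the log2 fold change stayed at 1.51 and 1.59. Within the first generation the difference was 1.40 and within the second 1.74 on the log2 scale. Gtse1-201 took 86.2% of its reads and Gtse1-202 13.8%, and the share of Gtse1-201 ran from 75.0% to 100% over the 13 libraries. None of its 30-base sequences occurs in transcripts of another gene.

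Psrc1, at chr3:108383839-108388231 on the plus strand, took a different course in time. It had 7.998 and 6.01 CPM at 0 h and already 12.5 and 17.3 CPM at 1 h, then 13.95 CPM at 2.5 h, 20.01 and 29.3 CPM at 4 h and 21.8 CPM at 6 h. Both 1 h libraries lay above both 0 h libraries, and the 2.5 h library lay between the 1 h libraries, so the later and earlier sides overlapped. The difference between the sides was 0.94 on the log2 scale (SE 0.33, adjusted p = 0.445 in edgeR), and neither edgeR nor DESeq2 called it. Its 2 main transcripts, Psrc1-201 with 62.6% of the reads and Psrc1-202 with 19.4%, took shares between 0.753% and 83% and between 0% and 78.2% in single libraries, too wide a spread to compare them.

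Btg2, at chr1:134075170-134079120 on the minus strand, took 40172 reads over the 13 libraries. It stood at 69.7 and 97.4 CPM at 0 h, 99.4 and 59.6 CPM at 1 h, 232 CPM at 2.5 h, 172 and 208 CPM at 4 h and 149 CPM at 6 h. The 0 h and 1 h libraries overlapped, all later libraries lay above them, and the highest value was at 2.5 h. Later against earlier, the log2 fold change was 1.20 (SE 0.21, adjusted p = 0.0649 in edgeR), a 2.29-fold difference with a 95% interval from 1.68 to 3.14, just short of a call. DESeq2 called it at adjusted p = 0.0003, and edgeR called it at adjusted p = 0.0483 with protein-coding transcripts only. The gene has 1 annotated transcript, and no 30-base sequence of it occurs elsewhere.

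Plk2, at chr13:110395046-110400844 on the plus strand, had 48.1 and 64.3 CPM at 0 h, 68.2 and 48.5 CPM at 1 h, 143 CPM at 2.5 h, 75.2 and 144 CPM at 4 h and 118 CPM at 6 h. The later libraries lay above the earlier ones, but replicate 1 of 4 h by a small margin. Its log2 fold change was 1.04 (SE 0.22, adjusted p = 0.136 in edgeR, adjusted p = 0.00578 in DESeq2), and without replicate 1 of 4 h it was 1.22 and called, with an adjusted p of 0.031 in edgeR. By the labels this library is the only later one of the first generation, where the difference was 0.39 on the log2 scale against 1.26 in the second generation. Plk3, at chr4:117128655-117133963 on the minus strand, was close to the limit of detection, with 0.687 and 0.066 CPM at 0 h, 0.122 and 0.871 CPM at 1 h, 1.52 CPM at 2.5 h, 2.41 and 0.965 CPM at 4 h and 1.02 CPM at 6 h. These values rest on 1 to 62 reads, and replicate 2 of 0 h and replicate 1 of 1 h did not exceed the floor of 3 reads used here. The later libraries lay above the earlier ones, but replicate 2 of 4 h only by 25 reads against 23 in replicate 2 of 1 h. The log2 fold change of Plk3 was 1.70 (SE 0.68, adjusted p = 0.494 in edgeR). Plk3 overlaps Tctex1d4 on the other strand, which had 0 to 13 reads, and 2.15% of the 30-base sequences of Plk3 are shared with that gene. Its reads were split over Plk3-203, Plk3-201 and Plk3-202 at 49.0%, 28.7% and 22.3%, and each share ran from 0% to 100% between libraries.

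The Gadd45 genes, the classic growth arrest and DNA damage inducible family, did not pass the test in either direction. Gadd45a, at chr6:67035096-67037457 on the minus strand, had 12.2 and 14.9 CPM at 0 h, 13.8 and 9.50 CPM at 1 h, 9.44 CPM at 2.5 h, 13.2 and 9.07 CPM at 4 h and 8.13 CPM at 6 h. The later libraries overlapped the earlier ones, with the lowest value at 6 h. Its log2 fold change was -0.36 (SE 0.26, adjusted p = 0.711 in edgeR), and its 95% interval on the fold scale ran from 0.526 to 1.15. A rise of the size seen in Gtse1 or Btg2 lies outside this interval. The gene overlaps E230016M11Rik on the other strand, which had 39 to 225 reads per library, and 17.1% of the 30-base sequences of Gadd45a occur in it. No source used here states whether the reads carry strand.

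Gadd45b, at chr10:80930073-80932204 on the plus strand, was low and scattered, at 3.68 and 6.47 CPM at 0 h, 5.25 and 2.42 CPM at 1 h, 7.32 CPM at 2.5 h, 2.91 and 7.80 CPM at 4 h and 6.998 CPM at 6 h. Later libraries overlapped earlier ones, and the later minus earlier difference was 0.88 in the second and -0.58 in the first generation on the log2 scale. Over both, the log2 fold change was 0.46 (SE 0.41, adjusted p = 0.77 in edgeR), with a fold interval from 0.741 to 2.56. Gadd45b-201 took 56.0% of its reads, Gadd45b-203 27.1% and Gadd45b-202 16.9%.

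Gadd45g, at chr13:51846678-51848468 on the plus strand, had 34.05 and 29.7 CPM at 0 h, 37.95 and 44.3 CPM at 1 h, 39.5 CPM at 2.5 h, 28.1 and 48.4 CPM at 4 h and 47.7 CPM at 6 h. Later and earlier libraries overlapped, and the 2 libraries of 4 h hold the lowest and the highest level of the 8. Its log2 fold change was 0.15 (SE 0.20, adjusted p = 0.865 in edgeR), with a fold interval from 0.821 to 1.49.

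**Figure D3:**
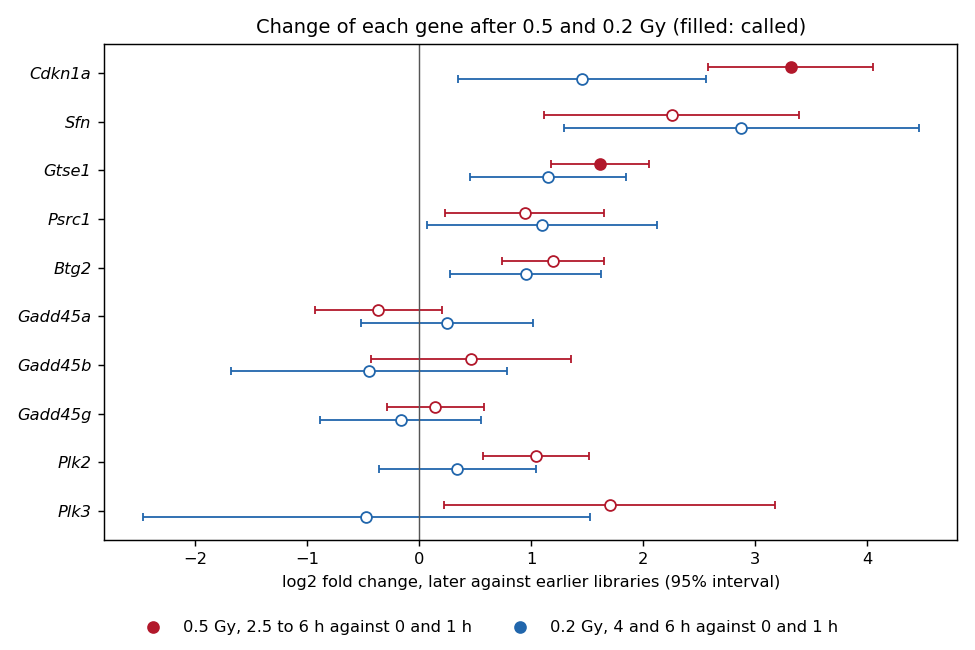
Log2 fold change of each gene (horizontal axis) with its 95% interval, red for 0.5 Gy (2.5, 4 and 6 h against 0 and 1 h) and blue for 0.2 Gy (4 and 6 h against 0 and 1 h), filled points called by edgeR. Only Cdkn1a (3.32) and Gtse1 (1.61) after 0.5 Gy are filled, and the intervals of Gadd45a, Gadd45b and Gadd45g include 0 at both doses.

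Against 0 h alone, edgeR called 0 of the 10 genes at any of the 4 times of 0.5 Gy, where it called 0% of the 28469 genes tested. At an unadjusted p under 0.05 it gave 3, 5, 6 and 5 members from the first of these times to the last, all higher, where 2.17%, 3.01%, 3.43% and 3.63% of all genes were higher at that level. DESeq2's Wald test with its beta prior, the test of the study, called 0 members at 1 h, Cdkn1a and Sfn at 2.5 h, Cdkn1a, Sfn, Gtse1 and Psrc1 at 4 h, and Cdkn1a, Sfn and Gtse1 at 6 h. It called 0.0836%, 0.409%, 0.615% and 0.716% of the 23912, 20314, 20314 and 19414 genes to which it gave an adjusted p-value at these times. All 4 comparisons share the 2 libraries of 0 h. With generation as a replicate block, edgeR also called Cdkn1a at 4 h and 6 h. These calls were lost with the 1 h and 4 h libraries exchanged between generations, since their assignment is in doubt.

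Against 0 h, Cdkn1a had log2 fold changes of 1.19, 3.87, 4.16 and 4.03 from 1 h to 6 h (SE 0.44, 0.52, 0.43 and 0.52), with adjusted p-values of 1, 0.16, 0.0883 and 0.118 in edgeR. Without a filter on low counts, edgeR called Cdkn1a at 2.5, 4 and 6 h, with adjusted p-values of 4.8e-05, 5.1e-06 and 1.8e-05, and Sfn at 6 h, with a log2 fold change of 3.91 and an adjusted p of 0.0356. Genes other than the members were also called without this filter. The share of all genes tested that this made is not given here, so these calls cannot be weighed against it. The numbers of all genes called at each time stand under "How the results depend on the processing". With 1 library left out, the filtered Cdkn1a value at 4 h ran from 3.52 to 4.59. The estimates for Cdkn1a at 2.5, 4 and 6 h lay within 1 SE of one another, and the value at 1 h was lower than each of them by more than 2 in log2. Those of Sfn were 1.70, 3.21, 3.17 and 3.86, with an SE between 0.67 and 0.80. They rest on the 8 and 15 reads of the 0 h libraries: without replicate 1 of 0 h they were 1.04, 2.55, 2.51 and 3.21, and without replicate 2 of 0 h they were 2.71, 4.21, 4.17 and 4.87. Psrc1 had 1.08, 0.99, 1.81 and 1.66 (SE 0.38, 0.46, 0.37 and 0.46). From 2.5 h on, Gtse1 had 1.41, 1.75 and 1.76 (SE 0.34 to 0.42), Btg2 1.46, 1.17 and 0.85 (SE 0.32 to 0.40) and Plk2 1.33, 0.95 and 1.08 (SE 0.36 to 0.44), each set lying within 2 SE of one another.

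Levels of different genes can be compared only per length, in TPM, the authors' length-corrected measure. In the earlier 0.5 Gy libraries Gadd45g was the highest of the 10 at 17.4 ± 2.10 TPM (SD, n = 4), followed by Btg2 at 9.85 ± 3.35, Plk2 at 7.55 ± 1.96, Gadd45a at 4.72 ± 2.06, Psrc1 at 3.14 ± 1.40, Cdkn1a at 2.88 ± 1.41 and Gadd45b at 2.53 ± 1.55 TPM. Then came Gtse1 at 1.58 ± 0.146, Sfn at 0.379 ± 0.247 and Plk3 at 0.071 ± 0.066 TPM. Only Gadd45g and Btg2, and Gtse1 and Sfn, were neighbours in this order whose mean ± SD did not overlap. In the later libraries Cdkn1a moved from position 6 to position 1, at 26.6 ± 8.32 TPM, beside Btg2 at 23.2 ± 5.02, Gadd45g at 17.9 ± 3.45 and Plk2 at 15.9 ± 4.02 TPM, a group whose neighbours overlap. Below it followed Psrc1 at 6.31 ± 1.14, Gtse1 at 4.76 ± 0.531, Gadd45a at 4.04 ± 0.709, Gadd45b at 2.96 ± 1.17, Sfn at 1.69 ± 0.529 and Plk3 at 0.251 ± 0.133 TPM. Of these neighbours, Plk2 and Psrc1, and Sfn and Plk3, did not overlap. Sfn thus stayed near the bottom of the order on both sides of 2.5 h.

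**Figure D4:**
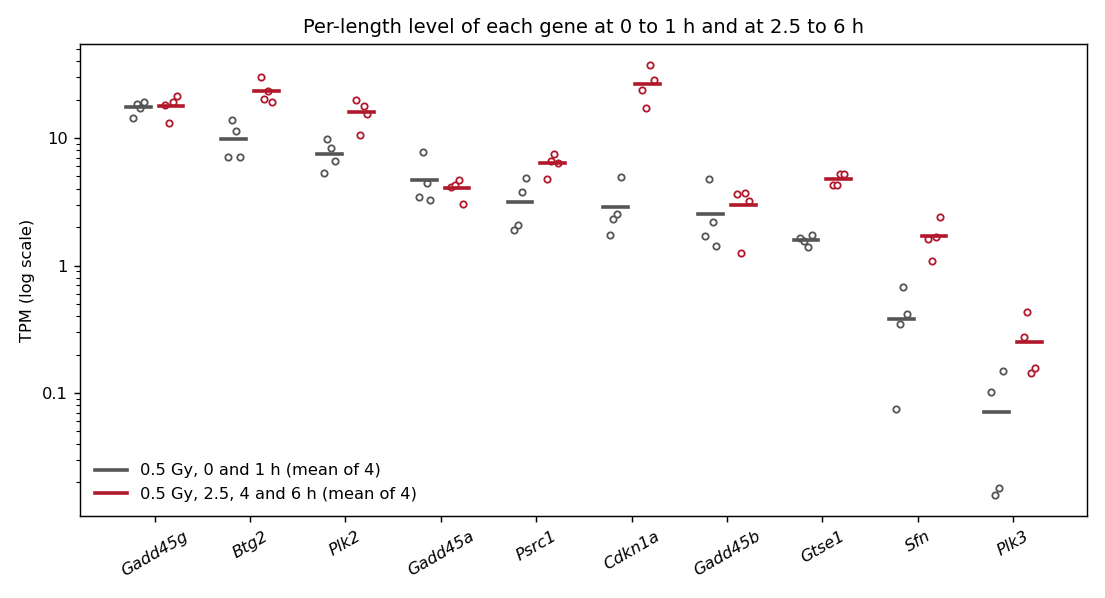
TPM (vertical log axis) of the 10 genes after 0.5 Gy, ordered by their level at 0 and 1 h, with 4 earlier libraries in grey and 4 later ones in red; bars are means. Cdkn1a goes from 2.88 to 26.6 TPM while Gadd45g stays at 17.4 and 17.9 TPM.

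After 0.2 Gy, the comparison set 4 and 6 h (2 libraries) against 0 and 1 h (2 libraries), with the spread shared with 0.5 Gy. In edgeR 0 of the 10 genes were called, where 0.0462% of 28162 genes were, and 5 members had an unadjusted p under 0.05 and were higher, where 3.03% of all genes were. DESeq2 called Sfn alone among the 10, where it called 0.579% of genes. The median log2 fold change was 0.65 over the 10 genes and -0.03 over all, with 7 of the 10 above 0 against 47.7% of all. In 5 genes, Cdkn1a, Sfn, Gtse1, Psrc1 and Btg2, both later libraries lay above both earlier ones, a pattern that 21.8% of all genes showed, with 0 of 10 in the opposite order against 25.2% of all. Markers of other cells lay mostly above 0 in the same comparison, with 0 called by edgeR or DESeq2: granulosa markers had a median of 0.53 (8 of 10 above 0, 2 higher at an unadjusted p under 0.05), red blood cell markers 0.73 (5 of 5 above 0, 1 higher) and stroma markers 0.44 (6 of 8 above 0, 0 higher). Cycling cell markers had a median of 0.13 (9 of 10 above 0), immediate early genes 0.36 (10 of 12), leukocyte markers 0.13 (5 of 7 tested) and oocyte markers 0.03 (6 of 12). Their part in the 0.2 Gy values was not tested.

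Cdkn1a had 6.60, 13.5, 18.5, 33.5 and 22.7 CPM at the 5 successive times of 0.2 Gy. Its 0 h level lay above both 0 h libraries of 0.5 Gy, and each level from 2.5 h on lay below all such levels of 0.5 Gy. Its log2 fold change was 1.45 (SE 0.51, adjusted p = 0.638 in edgeR) at 0.2 Gy and 3.38 (SE 0.39, adjusted p = 0.00563) at 0.5 Gy for the same times, 4 and 6 h. The difference between the doses was -1.92 in log2 (SE 0.65, 95% interval -3.32 to -0.52), with an unadjusted p of 0.0114 and an adjusted p of 0.545 in edgeR, which is not a call. With 1 library left out this difference ran from -2.36 to -1.32, and the change at 0.2 Gy from 1.08 to 2.06. In that test 0 members were called by edgeR or by DESeq2, where they called 0.032% and 0.52% of genes, and Cdkn1a was the only member with an unadjusted p under 0.05, where 3.93% of genes were lower at that level. At 0.5 Gy over 4 and 6 h alone, edgeR called Cdkn1a and Gtse1, where it called 0.128% of genes, and DESeq2 4 members, where it called 1.03%. The Cdkn1a call held in each of 11 fits with 1 library left out and that of Gtse1 in 5 of the 11. Averaged over both doses, edgeR again called Cdkn1a and Gtse1, where it called 0.163%, and DESeq2 5 members, where it called 0.74%. With 1 library left out, Cdkn1a was called in 8 of 11 fits, lost without the 0.2 Gy library of 0 h, of 1 h or of 4 h, and Gtse1 in 7 of 11, lost without the same libraries and without replicate 2 of 4 h of 0.5 Gy.

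Sfn had 0.66, 0.57, 2.32, 5.67 and 3.63 CPM at these times, resting on 19 to 153 reads, with a log2 fold change of 2.88 (SE 0.73, adjusted p = 0.455 in edgeR, adjusted p = 0.00968 in DESeq2). The difference between the doses was 0.57 (SE 0.91) with an interval from -1.40 to 2.55. Gtse1 had 9.02, 10.2, 12.7, 28.3 and 15.2 CPM at the 5 times, with a log2 fold change of 1.15 (SE 0.32, adjusted p = 0.494 in edgeR). The difference between the doses was -0.54 (SE 0.40), with an interval from -1.41 to 0.33, so neither an equal nor a 2-fold smaller change at 0.2 Gy lies outside it. For both genes the 2.5 h library of 0.2 Gy lay below the single 2.5 h library of 0.5 Gy, at 2.32 against 5.99 CPM for Sfn and 12.7 against 29.4 CPM for Gtse1, which has no replicate check.

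Psrc1 went through 10.9, 5.16, 6.35, 14.2 and 20.9 CPM, with its lowest values at 1 and 2.5 h, where 0.5 Gy had shown values above 0 h. Its log2 fold change was 1.10 (SE 0.47, adjusted p = 0.676 in edgeR), and 0.66 to 1.79 with 1 library left out. Btg2 went through 52.9, 82.7, 55.2, 160 and 107 CPM, with a log2 fold change of 0.95 (SE 0.31, adjusted p = 0.636 in edgeR), and its 2.5 h level lay close to that of 0 h, while after 0.5 Gy the 2.5 h level was the highest of the 8. The intervals of the difference between the doses ran from -1.29 to 1.29 for Psrc1 and from -0.99 to 0.70 for Btg2.

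The other 5 genes did not separate earlier from later libraries at 0.2 Gy. Plk2 had 73.2, 45.4, 47.0, 65.8 and 87.8 CPM, a log2 fold change of 0.34 (SE 0.32), and a difference between doses of -0.61 with an interval from -1.49 to 0.27. Plk3 had 2.64 CPM at 0 h, its highest level in any of the 13 libraries, and 0.52 to 1.44 CPM afterwards, a log2 fold change of -0.47 (SE 0.92). The Gadd45 genes ranged from 7.84 to 12.3 CPM for Gadd45a, 4.07 to 8.52 for Gadd45b and 17.1 to 38.4 for Gadd45g, with log2 fold changes of 0.25, -0.45 and -0.16 (SE 0.35, 0.57 and 0.33). Each of these intervals included 0.

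In the difference between doses, 0.2 minus 0.5 Gy, markers of other cells lay mostly above 0, with 0 called by edgeR or DESeq2. Stroma markers had a median of 0.66 (8 of 8 above 0), granulosa markers 0.42 (8 of 10), leukocyte markers 1.00 (6 of 7 tested) and endothelial markers 0.14 (4 of 4). Red blood cell markers had a median of 0.10 (3 of 5), cycling cell markers 0.17 (8 of 10) and immediate early genes 0.16 (8 of 12), beside 0.17 (8 of 12) for the oocyte markers. At an unadjusted p under 0.05, 1 gene each of the stroma, granulosa, leukocyte and oocyte lists was higher and 1 immediate early gene was lower. Their part in the members' differences between doses was not tested.

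Beside the 10 genes, 7 further lists of the same machinery were read in the comparison of later with earlier libraries of 0.5 Gy. Of their 49 genes, all tested, 1 was called by edgeR, where 0.128% of all genes tested were. This was Ccng1, the cyclin G gene that is an established p53 target. Ccng1 belongs to the list of changed genes that the study drew from these libraries, so its call is not independent evidence. Ccng1 had 45.0 to 78.0 CPM in the earlier and 192 to 325 CPM in the later libraries, a log2 fold change of 1.95 (SE 0.22, adjusted p = 0.00471 in edgeR). In its list of 6 other stress-induced arrest genes the lowest was Ccng2, with -0.37 (SE 0.25). The other CDK inhibitors gave 0 of 7 called and a median of -0.21. Cdkn2b, the INK4 inhibitor p15, had the highest value, 1.83 (SE 0.55, adjusted p = 0.37), at 0.198 to 0.909 CPM earlier and 0.70 to 2.62 CPM later, and Cdkn3 the lowest, -0.34 (SE 0.21).

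The close relatives of the members gave no call. Of the other polo-like kinases 0 of 3 were called, with Plk1 at 0.18 (SE 0.22) and Plk4 at -0.48 (SE 0.26). Of the other BTG and TOB genes 0 of 5 were called, with Btg3 at 0.17 (SE 1.03) and Btg4, an oocyte deadenylation factor, at -0.46 (SE 0.19). Of the other 14-3-3 genes 0 of 6 were called, with Ywhaz at -0.01 (SE 0.14) and Ywhaq at -0.41 (SE 0.16), and the 6 genes summed to between 2673 and 3454 CPM over the 13 libraries.

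Genes of the cell cycle and of its checkpoint gave no call either. RNA levels do not show the activity of their proteins. Of the 13 cyclins, CDKs and Pcna, 0 were called and 2 had an unadjusted p under 0.05, both lower, with a median of -0.06. Ccnd2, the highest, had a log2 fold change of 0.15 (SE 0.17), and Ccnd1, the lowest, -0.47 (SE 0.29). Of the 9 genes of the mitotic switch and its checkpoint 0 were called. Fzr1, an activator of the anaphase-promoting complex that holds prophase arrest, had 0.50 (SE 0.18, adjusted p = 0.445 in edgeR). Wee1, an inhibitory kinase of CDK1, had -0.58 (SE 0.24, adjusted p = 0.511 in edgeR). At an unadjusted p under 0.05, edgeR gave 2 higher and 1 lower of the mitotic switch genes, 1 lower each of the 14-3-3 and the BTG and TOB genes, 1 higher of the CDK inhibitors, 2 higher of the other stress-induced arrest genes (Ccng1, and Rprm at 1.49 with SE 0.66 and adjusted p = 0.525, named after its value was seen) and 0 of the polo-like kinases. Of all genes tested, 4.77% were higher and 4.29% lower at that level. DESeq2 called 1 of the 49 genes, in the list that holds Ccng1, where it called 0.977% of genes.

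**Figure D5:**
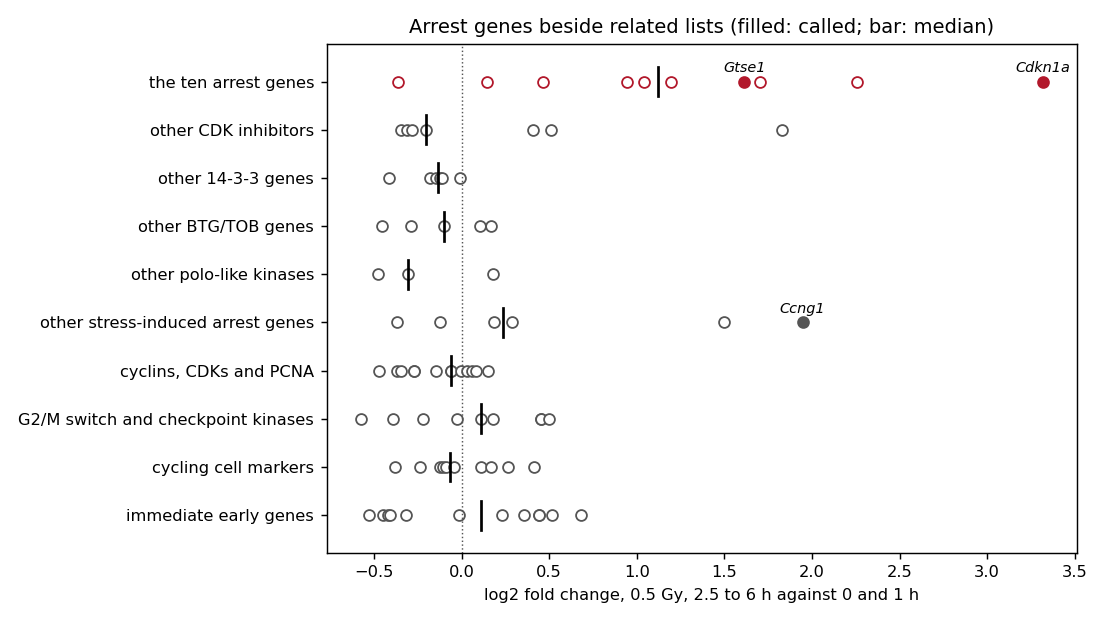
Log2 fold change after 0.5 Gy, later against earlier libraries (horizontal axis), of each gene in the set and in 9 related lists (rows); points are genes, filled when called, and bars are medians. The 10 arrest genes have a median of 1.12, the medians of the other lists lie between -0.30 and 0.24, and Ccng1 is the only filled point outside the set.

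Markers of other cells, and the lists of cycling cell markers and immediate early genes, were set beside these values. Between the earlier and later libraries of 0.5 Gy the summed markers of cycling cells ranged from 1123 to 1443 and from 1142 to 1326 CPM, with 0 of 10 called and a median log2 fold change of -0.07. Granulosa markers ranged from 1306 to 2054 and from 1437 to 2079 CPM, and stroma markers from 2746 to 3918 and from 2568 to 3290 CPM, with 0 called in both. Of 12 immediate early genes, which respond to handling of tissue, 0 were called, and their sums of 215 to 447 and 315 to 392 CPM overlapped. Of these marker lists, only the red blood cell markers had all log2 fold changes above 0, 5 of 5 with 0 called and 1 with an unadjusted p under 0.05, a median of 0.50 and sums of 2384 to 3525 CPM earlier and 2706 to 6284 CPM later. Against 0 h their medians were -0.35, -0.28, 0.82 and -0.32 from 1 h to 6 h, and at 4 h 5 of 5 lay above 0 and 3 were higher at an unadjusted p under 0.05. For 4 and 6 h against the earlier libraries the median was 0.59 with 3 of 5 higher at that level, and over both doses 0.66 with 4 of 5, with 0 called by edgeR or DESeq2 in each. Stroma markers had medians of 0.48, 0.17, -0.02 and 0.05 against 0 h from 1 h to 6 h, with 8 of 8 above 0 and 2 higher at that level at 1 h, and 7 of 8 above 0 and 1 higher at 2.5 h. For 4 and 6 h against the earlier libraries their median was -0.22, with 0 of 8 above 0. The medians of the granulosa markers against 0 h lay between -0.14 and 0.00, those of the cycling cell markers between -0.09 and 0.07 and those of the immediate early genes between -0.36 and 0.00, with at most 1 gene of a list lower and 0 higher at that level. All these stroma, granulosa, cycling and immediate early comparisons had 0 called by edgeR or DESeq2. At that unadjusted level, in the later against the earlier libraries of 0.5 Gy, the cycling and immediate early lists had 1 gene higher each, the stroma list 1 lower and the granulosa list 0. Endothelial markers had a median of -0.09 in this comparison, with 0 of 4 above 0 and 0 called. Against 0 h their medians were 0.29, -0.43, 0.04 and 0.27 from 1 h to 6 h, with 0 of 4 above 0 at 2.5 h. Of 8 leukocyte markers 6 were tested in the later against the earlier libraries, with 0 called, 2 lower at an unadjusted p under 0.05, 1 above 0 and a median of -0.35. Their sums were 50.2 to 262 CPM earlier and 39.2 to 74.8 CPM later. Against 0 h alone, where replicate 2 has the 262 CPM, all 8 leukocyte markers were tested and their medians were -2.07, -2.39, -2.18 and -1.81 from 1 h to 6 h, with 3, 3, 4 and 3 genes lower at an unadjusted p under 0.05, 0 called by edgeR and 1 by DESeq2 at each time. In the comparison of later with earlier libraries DESeq2 called 0 genes of any of these lists. The part of these cells in the members' values was not tested. The members' own sum was 194 to 256 CPM earlier and 394 to 594 CPM later.

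Of 19825 protein-coding genes compared over all 13 libraries, those whose log2 CPM followed Cdkn1a most closely were 9930012K11Rik (Pearson r = 0.969), Cldn4 (0.954), a claudin of tight junctions, Traf4 (0.953), an adaptor of the TNF receptor family, Prickle3 (0.950) and Ttll10 (0.943). 9930012K11Rik went from between 4.49 and 13.3 CPM in the earlier to between 50.4 and 81.6 CPM in the later libraries of 0.5 Gy, and Traf4 from 5.53 to 8.97 CPM to 17.8 to 22.5 CPM. Among the members, Gtse1 (r = 0.91) and Sfn (0.87) followed Cdkn1a most closely, then Btg2 (0.77), Plk2 (0.71), Psrc1 (0.68) and Plk3 (0.52). Gadd45g had 0.30, Gadd45b 0.26 and Gadd45a -0.45. These values describe 13 libraries that share dose, time and generation, and say nothing of common control.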

How the data were processed

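Libraries were made by the authors from pooled ovaries with a SMARTer kit and sequenced as 30-base reads, which the labels call paired-end and the series description single-end. The authors estimated counts per transcript with salmon on Ensembl transcripts of GRCm38 and deposited, per library, these expected counts and TPM values, neither normalized between libraries nor filtered. The deposited comparison tables hold fold changes and p-values of each time against 0 h, and a merged table holds normalized values; neither was used. The submitters' processing notes name DESeq2 1.24.0.

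Here the estimated counts were summed per gene of the GENCODE annotation of GRCm38 and rounded, leaving out 402 of 130740 transcripts without a gene there, at most 0.495% of a library's reads. Depth was 15709549 to 30430104 reads. The floor was 3 reads, since an observed count of 0 is compatible with an expected count of up to 3, covering counting error only. Counts were normalized with TMM, filtered with filterByExpr and fitted with edgeR 4.0.16 (limma 3.58.1, R 4.3.3), with DESeq2 1.42.0 as an alternative (with a beta prior, as in the study, only for times against 0 h), and p-values were adjusted by Benjamini-Hochberg over all genes tested. CPM used TMM over the 13 libraries, and log2 CPM a prior count of 2. The SE is the Wald error of the fit. Shares of genes called by DESeq2 are of the genes to which it gave an adjusted p-value. The 0.2 Gy comparison and the difference between the doses used 1 fit of 11 libraries without 2.5 h. Scripts were tested on simulated counts. Python 3.11.15, pandas 2.3.3, numpy 2.4.6 and matplotlib 3.10.9 were used. Alternatives were RLE scaling, DESeq2, no filter, protein-coding transcripts only, a generation term, and each library left out.

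Members, lists, the split at 2.5 h and tests were chosen with earlier results of these data known. Named were all members, from each related list the called genes and the highest and lowest log2 fold change, the 5 genes most correlated with Cdkn1a, and transcripts with at least 10% of a member's reads.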

Additional observations from a re-analysis of the deposited data

How the results depend on the processing

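The alternatives gave 796 values for the members' fold changes printed above, those averaged over both doses and those not printed being left out of the count. Of these, 750 kept their direction and side of the threshold, 23 passed in addition, 8 no longer passed and 15 changed sign. Cdkn1a was called under every alternative run for 0.5 Gy late against early. The number of members called there, 2, was 5 with DESeq2 (with Sfn, Btg2 and Plk2), 4 without a filter (with Btg2 and Plk2), 3 with protein-coding transcripts only (with Btg2) and 1 to 3 with 1 library left out. For 4 and 6 h alone it was 2, 4 with DESeq2 and 1 to 2 with 1 library left out, Gtse1 being lost without any one of the libraries of 0 h and 1 h, replicate 2 of 4 h or the 6 h library of 0.5 Gy. For 0.2 Gy it was 0, and 1 with DESeq2. Over both doses it was 2, 5 by DESeq2, 4 without a filter and 0 to 3 with 1 library left out, none without the 0.2 Gy libraries of 0, 1 or 4 h. Against 0 h it was 0, but 2, 4 and 3 at 2.5, 4 and 6 h with DESeq2, and 1, 1 and 2 without a filter. The cause was not tested.

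Genes called moved further. For 0.5 Gy late against early, 29 became 250 with DESeq2, 58 without a filter and 10 to 37 with 1 library left out. For 0.2 Gy, 13 became 147, 32 and 1 to 18, and 0 with protein-coding transcripts only. For 4 and 6 h of 0.5 Gy, 36 became 252 with DESeq2 and 11 to 49 with 1 library left out. The difference between doses went from 9 to 132 with DESeq2, 22 without a filter, 0 with protein-coding transcripts only and 0 to 13 with 1 library left out, and both doses together from 46 to 188, 23 with protein-coding transcripts only and 14 to 44. Against 0 h, 0 became 20, 83, 125 and 139 with DESeq2, 30, 56, 80 and 78 without a filter, and at most 10 with 1 library left out.

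Replicates 1 and 2 carry the generation label. Deviations of same-numbered libraries correlated at 0.163 (0 and 1 h), 0.0969 (0 and 4 h) and 0.138 (1 and 4 h) over 22588 genes, each above 0, but not all above 0.1, so the numbers were not taken as pairs. With generation as a replicate block, Cdkn1a passed at 4 h and 6 h against 0 h (1 member each, adjusted p = 0.0221 and 0.0443 in edgeR), and no other call of a member changed. The block moved the genes called for 0.5 Gy late against early from 29 to 18 and those against 0 h from 0 to 1, 6 and 7 at 2.5, 4 and 6 h. With the 1 h and 4 h libraries exchanged between generations, since their assignment is in doubt, these were 24 and 0, with 7 for 0.2 Gy and 1 for the difference between doses.

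The difference between doses of Psrc1, -0.001, was 0.0339 with RLE, 0.0470 with DESeq2, 0.00997 without a filter, 0.0447 with the replicate block, and -0.44 to 0.69 with 1 library left out. Among the other printed fold changes, leaving out 1 library turned the 0.2 Gy log2 fold changes of Plk3 (-1.08 to 0.67), Gadd45b (-0.777 to 0.0640) and Gadd45g (-0.487 to 0.34), and the differences between doses of Btg2 (-0.493 to 0.216) and Gadd45g (-0.658 to 0.174). Uncalled fold changes that are not printed also changed sign in this way, those of Gtse1, Btg2, Gadd45b, Plk2 and Plk3 (-1.68 to 2.78) at 1 h and of Gadd45b and Gadd45g at 4 h against 0 h, and those of the 3 Gadd45 genes over both doses. Plk3 had 1 to 92 reads and Sfn 8 to 245 per library, which limits their precision.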
